A study of Mus musculus with 9 samples.

Results

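Bcat1 encodes the cytosolic branched-chain aminotransferase, and it was examined here together with the other genes of the shared first steps of branched-chain amino acid breakdown in mouse prostate cancer cells. The set has 10 genes of the 22180 genes with a named probe set, namely Bcat1, Bcat2, Bckdha, Bckdhb, Bckdk, Dbt, Dld, Ivd, Mccc1 and Mccc2. They are the enzymes and the regulator of one pathway, and Bcat1 was chosen by its known lower value in recurrent lines than in the parental line. Values against the parental line are therefore a description for all 10 genes, and the comparison of AZD1208 with vehicle lines is the one that was tested. Each gene had 1 probe set (a group of short probes for one transcript) in the platform annotation, and all 10 were bright enough to be kept by the filter on dim genes, which left 15526 genes.

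The AZD1208 group holds 3 lines derived from MYCCaP tumours of castrated mice that received AZD1208, an inhibitor of the PIM kinases. The vehicle group holds 3 such lines from mice that received vehicle, and both groups were cultured without dihydrotestosterone (DHT, an androgen). The parental group is the MYCCaP line itself, kept with DHT and measured on 3 arrays that the labels call technical replicates, so it counts as 1 sample. MYCCaP cells come from a prostate tumour of a mouse with a MYC transgene driven by an androgen-responsive prostate promoter, and all groups share this origin. Dose, duration, mouse age and the number of mice behind the lines are missing from the sources used here. The p-values therefore reflect the variation among these cultured lines alone. The androgen in the medium, the growth in a mouse and the castration differ together between recurrent and parental cells and cannot be told apart.

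Leucine, isoleucine and valine are broken down by a common opening sequence. An aminotransferase, cytosolic BCAT1 or mitochondrial BCAT2, moves the amino group to 2-oxoglutarate, which yields glutamate and a branched-chain keto acid. The mitochondrial branched-chain keto acid dehydrogenase complex then commits the carbon skeleton to oxidation. Its decarboxylase subunits are encoded by Bckdha and Bckdhb, its acyltransferase core by Dbt and its flavoprotein by Dld, and the kinase BCKDK switches the complex off by phosphorylation. Leucine carbon goes on through isovaleryl-CoA dehydrogenase (Ivd) and methylcrotonyl-CoA carboxylase (Mccc1 and Mccc2). BCAT1 has a narrow tissue range in normal adults and is found in many tumours.

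The deposited values are log2 intensities, so a difference of 1 is a doubling of the signal. Array medians lay between 6.22 and 6.36. The array of AZD1208 line 3 had the narrowest spread of values, with an interquartile range of 2.87 against 2.98 to 3.12 on the others, and the lowest weight, 0.34, when limma weighted arrays by quality. The prostate factors Foxa1 (11.78, 11.90 and 11.84 as means of AZD1208 lines, vehicle lines and the parental line) and Hoxb13 (8.60, 8.73 and 8.86) were bright in every group, as was the claudin Cldn3 (11.99, 12.05 and 12.43). The epithelial genes Epcam and Esrp1 and the secretory prostate genes Pbsn and Msmb were among the dim genes left out.

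In RefSeq's promoter table (GRCm38.p6) 9 of the 10 genes had an entry, with 12 start sites in all. The 250 bases before each start were searched on both strands for CACGTG, the E-box read by MYC and MAX, and for TGATGNAA, a core of C/EBP-ATF response elements. The windows shown are those of Bcat1, whose 6 recurrent lines all lay below the parental arrays, of Bckdha, whose 6 lines all lay above them, and of Mccc2, which held the only E-box among the 12 windows. Motif matches are in capitals. The Bcat1 windows are chr6:145076158-145076407 and chr6:145048813-145049062, both on the minus strand. The Bckdha window is chr7:25658762-25659011 and the Mccc2 window chr13:100015640-100015889, also on the minus strand.
Bcat1, first start: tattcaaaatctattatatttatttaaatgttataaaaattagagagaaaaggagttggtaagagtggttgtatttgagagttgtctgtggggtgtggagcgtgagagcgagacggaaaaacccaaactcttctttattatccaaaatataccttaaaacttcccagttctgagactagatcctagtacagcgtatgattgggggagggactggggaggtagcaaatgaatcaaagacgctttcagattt
Bcat1, second start: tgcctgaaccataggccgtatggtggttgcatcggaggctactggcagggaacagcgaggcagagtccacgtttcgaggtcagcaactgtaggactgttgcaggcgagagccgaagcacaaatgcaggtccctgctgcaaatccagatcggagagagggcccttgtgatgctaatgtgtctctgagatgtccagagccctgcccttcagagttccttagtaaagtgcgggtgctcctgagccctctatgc
Bckdha: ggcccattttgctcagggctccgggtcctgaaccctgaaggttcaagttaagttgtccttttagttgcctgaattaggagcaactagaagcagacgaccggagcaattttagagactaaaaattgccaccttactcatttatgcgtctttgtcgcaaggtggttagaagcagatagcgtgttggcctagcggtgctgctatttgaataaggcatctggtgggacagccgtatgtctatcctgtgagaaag
Mccc2: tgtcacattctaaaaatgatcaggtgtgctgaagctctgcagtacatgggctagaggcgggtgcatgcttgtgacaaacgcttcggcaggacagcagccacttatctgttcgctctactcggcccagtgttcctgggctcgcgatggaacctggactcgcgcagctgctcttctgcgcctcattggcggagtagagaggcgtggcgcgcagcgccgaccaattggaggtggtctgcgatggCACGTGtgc

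Neither Bcat1 window and not the Bckdha window held either motif as written. The Mccc2 E-box began 9 bases before the start. TGATGNAA occurred in none of the 12 windows. Of 32851 windows of this length in the table, 6.02% held CACGTG and 3.45% TGATGNAA.

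The aminotransferase genes come first. Bcat1 (probe set 17472678) read 6.53, 6.59 and 6.79 in AZD1208 lines 1 to 3, 6.67, 6.45 and 6.71 in vehicle lines 1 to 3, and 7.97, 7.75 and 7.96 on the parental arrays. All 6 recurrent lines lay below all 3 parental arrays, with no overlap. The mean was 6.62 ± 0.12 in recurrent lines (SD, n = 6) and 7.89 in the parental line (technical SD 0.12 over 3 arrays). The difference was -1.27 on the log2 scale, or 2.41-fold lower in the recurrent lines. Of the genes tested, 28 had a larger fall.

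Bcat1 varied little from one recurrent line to another. Its values spanned 0.34, and the SD between the 6 lines was 1.02 times the technical SD between arrays of the one parental sample. The median SD between recurrent lines over all genes tested was 0.23, and 11.1% of genes had a smaller one than Bcat1. The recurrent values lay only 0.23 to 0.43 above the median of their own arrays, against 1.47 to 1.70 on the parental arrays. The data hold no detection calls, and whether background signal narrows the fold or the spread between lines at this level was not tested. The difference from the parental mean was -1.26 in AZD1208 lines and -1.28 in vehicle lines, and both values share the parental sample.

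Bcat2, the mitochondrial enzyme of the same reaction, did not show that separation. It read 9.76, 9.17 and 9.73 in AZD1208 lines, 10.12, 9.09 and 9.80 in vehicle lines and 9.76, 9.73 and 9.88 on the parental arrays. AZD1208 line 2 and vehicle line 2 lay below the parental arrays and vehicle line 1 above them. The recurrent mean minus the parental value was -0.18, within the SD of 0.40 between lines. It was -0.032 without vehicle line 2, -0.079 without AZD1208 line 2 and -0.29 without vehicle line 1. Bcat2 thus varied more among recurrent lines (range 1.02) than Bcat1 did, although the parental arrays were close together (technical SD 0.08).

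**Figure D1:**
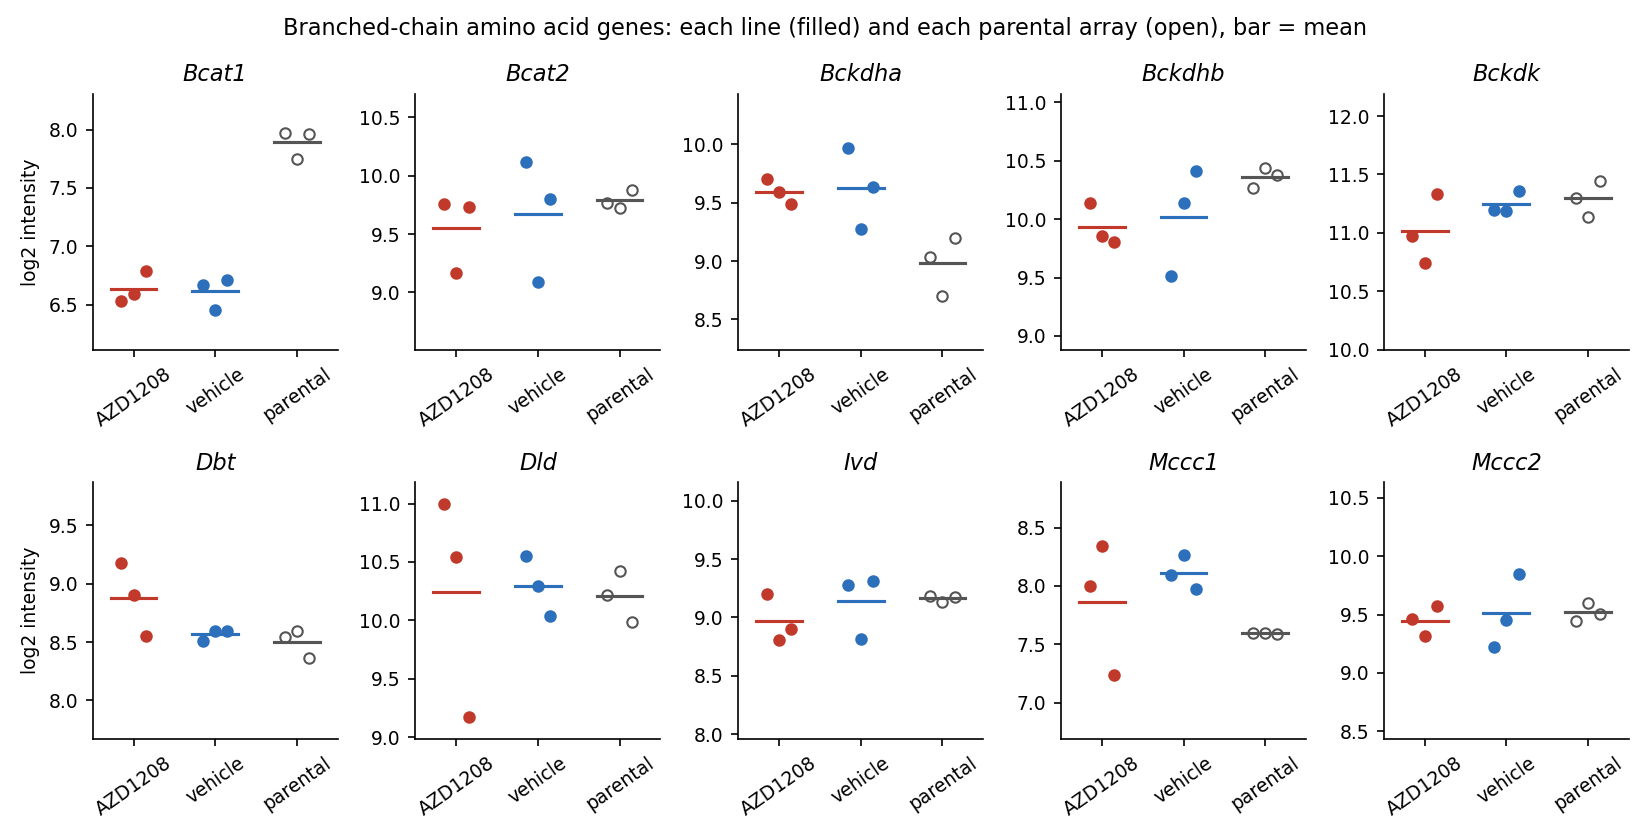
Log2 intensity of the 10 genes in AZD1208 lines, vehicle lines and the parental line, with 1 filled point per line, 1 open point per technical parental array and a bar at each mean; every panel spans the same height on its own range. Bcat1 sits between 6.45 and 6.79 in all 6 recurrent lines and between 7.75 and 7.97 on the parental arrays, while Dld and Mccc1 have a low AZD1208 line at 9.17 and 7.24.

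Genes of the dehydrogenase complex had differences of both signs from the parental line, given as a description. Bckdha, the alpha subunit of the decarboxylase, read 9.70, 9.59 and 9.49 in AZD1208 lines, 9.97, 9.27 and 9.64 in vehicle lines and 9.04, 8.71 and 9.20 on the parental arrays. All 6 lines lay above all parental arrays, the lowest (vehicle line 2) by little. The mean was 9.61 ± 0.23 in recurrent lines (SD, n = 6) and 8.98 in the parental line, 0.63 or 1.55-fold higher. The parental arrays themselves spread more for this gene than for the other 9 (technical SD 0.25), and that SD exceeds the one between lines.

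Bckdhb, the beta subunit that pairs with it, leaned the other way. It read 10.14, 9.85 and 9.80 in AZD1208 lines, 9.51, 10.14 and 10.41 in vehicle lines and 10.26, 10.44 and 10.37 on the parental arrays. The lines overlapped the arrays only through vehicle line 3, and the other 5 lay below. The recurrent mean was 0.38 lower, slightly more than the SD of 0.32 between lines.

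Dbt, the acyltransferase core, read 9.18, 8.91 and 8.55 in AZD1208 lines, 8.51, 8.59 and 8.59 in vehicle lines and 8.54, 8.59 and 8.37 on the parental arrays. Only AZD1208 lines 1 and 2 stood above the parental arrays. Vehicle lines 2 and 3 and parental array 2 carry exactly the same deposited value, so the SD of vehicle lines (0.05) rests on a repeated value. Such repeats on 2 or more arrays occurred for 30.4% of genes tested and, among the 10, for Dbt alone.

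Dld, the flavoprotein that the pyruvate and 2-oxoglutarate dehydrogenases and the glycine cleavage system also use, had the widest range of the set, 1.83. It read 10.999, 10.55 and 9.17 in AZD1208 lines, 10.55, 10.30 and 10.04 in vehicle lines and 10.21, 10.42 and 9.99 on the parental arrays. The AZD1208 lines held both the highest and the lowest recurrent value, and the low one was line 3, the array with the narrowest spread. The recurrent mean minus the parental value was 0.06, against 0.32 without AZD1208 line 3 and -0.13 without AZD1208 line 1.

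Bckdk, the kinase that inactivates the complex, read 10.97, 10.74 and 11.33 in AZD1208 lines, 11.19, 11.19 and 11.36 in vehicle lines and 11.30, 11.14 and 11.45 on the parental arrays. AZD1208 lines 1 and 2 lay below the parental arrays and the other 4 lines among them. The recurrent mean was 0.16 lower, within the SD of 0.24 between lines. Ppm1k, the phosphatase that reactivates the complex, differed from the parental value by 0.14 (SE 0.20, limma adjusted p = 1).

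**Figure D2:**
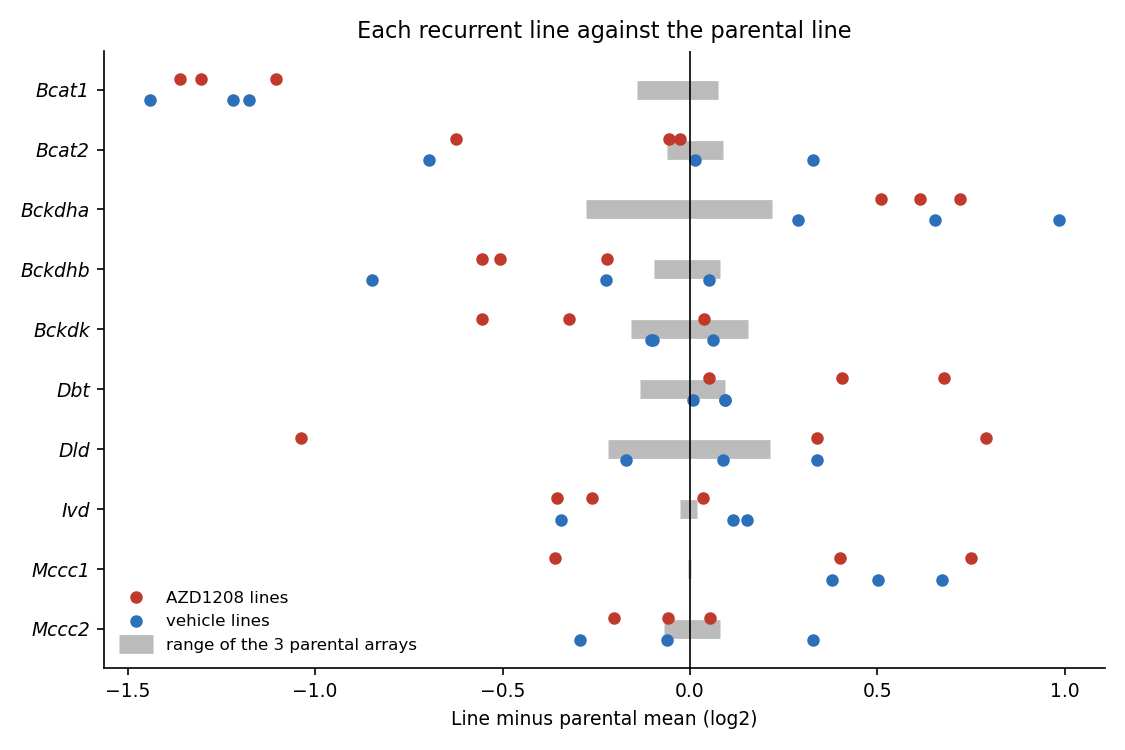
Each recurrent line minus the parental mean (log2) for the 10 genes, with AZD1208 lines above vehicle lines in each row and a grey band for the range of the 3 parental arrays, which for Mccc1 is too narrow to see. Bcat1 lies left of its band in 6 of 6 lines and Bckdha right of it in 6 of 6, while the other genes have lines on or across the band or on both sides of it.

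In the leucine branch, Ivd, which oxidises isovaleryl-CoA, read 9.20, 8.81 and 8.90 in AZD1208 lines, 9.28, 8.82 and 9.31 in vehicle lines and 9.18, 9.14 and 9.17 on the parental arrays. With 3 lines above and 3 below the parental arrays, its mean difference was -0.11, within the SD of 0.24 between lines. Mccc2, the beta subunit of methylcrotonyl-CoA carboxylase, read 9.46, 9.32 and 9.57 in AZD1208 lines, 9.22, 9.46 and 9.85 in vehicle lines and 9.45, 9.60 and 9.51 on the parental arrays. Its recurrent lines lay on both sides of the parental value, and the mean difference was -0.04.

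Mccc1, the biotin-carrying alpha subunit, read 7.995, 8.35 and 7.24 in AZD1208 lines, 8.10, 8.27 and 7.97 in vehicle lines and 7.60, 7.60 and 7.59 on the parental arrays. It was above the parental arrays in 5 of 6 lines and below them in AZD1208 line 3. The mean difference was 0.39 with that line and 0.55 without it. The SD between lines was 0.40.

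Counted together, 1 of the 10 genes (Bcat1) had all 6 lines below all parental arrays, where 5.05% of genes tested did, and 1 (Bckdha) had all 6 above, where 6.94% did. The median difference of the 10 genes was -0.07, against -0.02 over all genes tested, with 4 genes higher and 6 lower. No other gene of the 10 had all 6 lines below, which at a share of 5.05% says little about the pathway. Bckdhb came nearest, with 5 of 6 lines below all parental arrays. In limma's fit 0% of all genes passed an adjusted p of 0.05 between recurrent and parental cells, with 429 genes at an unadjusted p under 0.05, and the 10 genes were not tested in this comparison because it chose them.

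The comparison of AZD1208 with vehicle lines asked whether the PIM inhibitor given to the mice left a difference in these genes. None of the 10 separated the groups, whose values overlapped for each gene. Over all genes tested 3.39% had no overlap between the groups and 0% passed an adjusted p of 0.05 (limma), with 81 genes at an unadjusted p under 0.05. Bcat1 averaged 6.64 ± 0.14 in AZD1208 lines and 6.61 ± 0.14 in vehicle lines (SD, n = 3 each). The difference was 0.02, with a 95% confidence interval of -0.34 to 0.39 (limma adjusted p = 1). An exact two-sided permutation test gave p = 1, where 3 lines against 3 allow no p below 0.1. The interval does not reach the size of the gap between recurrent lines and the parental line.

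Dbt and Bckdk had the lowest unadjusted p of the 10 genes (0.139 and 0.250, limma). Dbt averaged 8.88 ± 0.32 in AZD1208 lines and 8.57 ± 0.05 in vehicle lines (SD, n = 3 each), a difference of 0.31 (95% confidence interval -0.13 to 0.75). Bckdk averaged 11.01 ± 0.30 in AZD1208 lines and 11.25 ± 0.09 in vehicle lines (SD, n = 3 each), a difference of -0.23 (interval -0.67 to 0.20). Neither passed the test (limma adjusted p = 1 for both). The Dbt value was 0.16 without AZD1208 line 1 and 0.48 without AZD1208 line 3, and the Bckdk value -0.10 without AZD1208 line 2 and -0.39 without AZD1208 line 3.

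Mccc1 differed by -0.25 (interval -0.91 to 0.40) and by 0.06 without AZD1208 line 3. Dld differed by -0.05 (interval -1.08 to 0.97) and by 0.48 without that line, and it was also above 0 without vehicle line 1 (0.072). Bcat2 (-0.12), Bckdha (-0.03), Bckdhb (-0.09), Ivd (-0.17) and Mccc2 (-0.06) were each within 1 SE of 0. All 10 genes had an adjusted p of 1, and 8 of them were lower in AZD1208 lines, where 8511 of 15526 genes were lower. The intervals of Bcat1, Bckdha, Bckdhb, Bckdk, Dbt, Ivd, Mccc1, Mccc2, Bcat2 and Dld all include 0 and leave room for differences of the sizes they span.

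**Figure D3:**
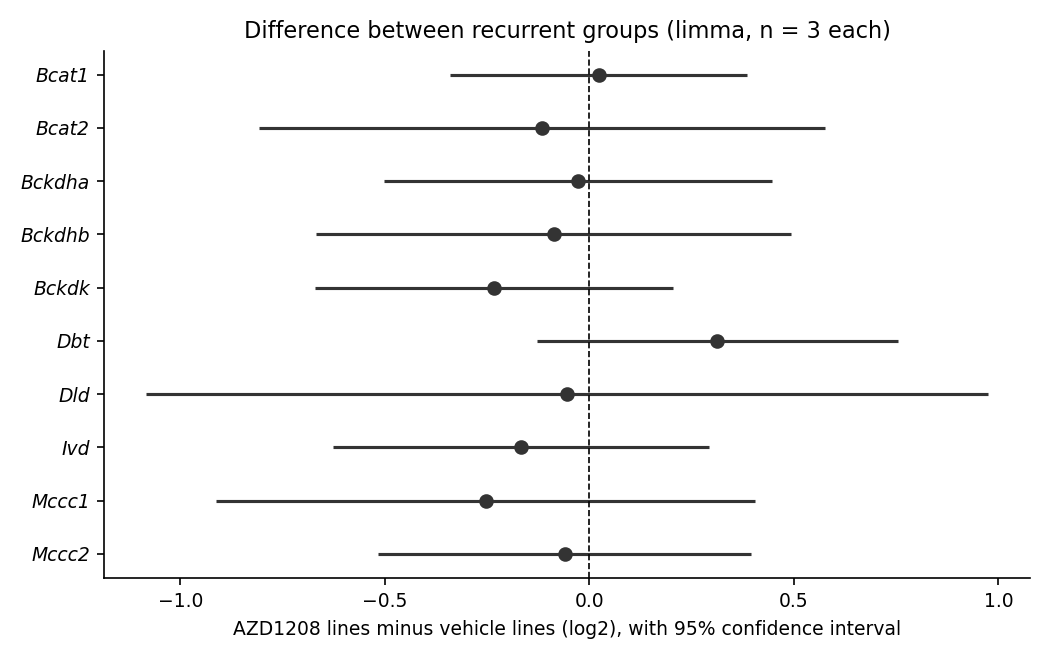
Mean of AZD1208 lines minus mean of vehicle lines (log2, n = 3 each) for the 10 genes, with limma's 95% confidence interval as a line and a dashed line at 0. All 10 intervals cross 0, Bcat1's from -0.34 to 0.39 and Dld's, the widest, from -1.08 to 0.97.

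The members were also compared with one another over the 6 recurrent lines. Of 45 pairs, 26 correlated above 0, with r from -0.74 to 0.85 and a median of 0.08. None passed adjustment over the 45 pairs (exact permutation over 720 orders, smallest adjusted p = 0.604). Bcat2 and Ivd had the highest value (r = 0.85, rho = 0.89, exact permutation p = 0.025 and 0.0333, adjusted p = 0.604 and 0.64), which was 0.51 without the 2 lines farthest from the Bcat2 median. Bcat2 and Bckdha had r = 0.80 and rho = 0.89 (exact permutation p = 0.0444 and 0.0333, adjusted p = 0.604 and 0.64), and r was 0.93 without the same 2 lines. Bcat1 correlated with the other genes at between -0.74 (Mccc1) and 0.62 (Bcat2). Without vehicle line 2 and AZD1208 line 3, the 2 lines farthest from the Bcat1 median, these were -0.26 and 0.44. On that removal the values for Bckdha (0.35 to 0.26) and Bckdhb (-0.25 to 0.07) also shrank in size. Those for Dbt (-0.47 to -0.94), Dld (-0.70 to -0.90), Bckdk (0.51 to 0.80), Ivd (0.31 to 0.51) and Mccc2 (0.36 to 0.43) grew.

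Among all genes tested, the 5 whose values followed Bcat1 most closely over the 6 recurrent lines were Stab2 (r = 0.998), Ptgfr (0.994), Gna14 (0.991), Gcnt7 (0.991) and Bcas1 (0.99). The 5 that ran most opposite were Xpa (-0.989), Cbwd1 (-0.978), Smc3 (-0.978), Immp1l (-0.97) and Cenpf (-0.966). These are the extremes of many genes over 6 points, on a Bcat1 range of 0.34 that is not much wider than its technical spread, and are given as a description.

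The wider pathway was followed with lists of neighbouring genes. Of 18 measured enzymes further down the breakdown of the 3 amino acids, 11 were higher and 7 lower in recurrent lines than in the parental line (median 0.13), and none passed the test in either direction. Oxct1, which activates ketone bodies, differed by 0.62 (SE 0.34). Acadsb, the isoleucine-branch dehydrogenase, differed by 0.77 (SE 0.45), and Mmut, which turns methylmalonyl-CoA into succinyl-CoA, by 0.81 (SE 0.53). The hydratase Echs1 was at -0.22 (SE 0.19). Each of these had an adjusted p of 1 (limma).

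Among the genes of control and cofactor supply, Klf15, a transcription factor that induces branched-chain breakdown in muscle, differed by 0.48 (SE 0.31) and Hlcs, which attaches biotin to carboxylases such as MCCC1, by 0.52 (SE 0.35). Slc25a44, the mitochondrial carrier of branched-chain amino acids, differed by -0.28 (SE 0.24). In the complexes that share Dld, 4 of 9 genes were higher and 5 lower (median -0.02), with Ogdh at -0.39 (SE 0.18), Dlat at -0.39 (SE 0.22) and Amt at 1.14 (SE 0.999). No gene of either list passed (smallest adjusted p = 1, limma).

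Of 10 other aminotransferases tested, 4 were higher and 6 lower (median -0.06). Gpt2, the mitochondrial alanine aminotransferase, read 10.51, 9.81 and 10.42 in AZD1208 lines, 10.44, 10.18 and 10.38 in vehicle lines and 9.50 in the parental line, a difference of 0.79 (SE 0.29). Abat, which transaminates the neurotransmitter GABA, differed by 1.84 (SE 0.70), and Kyat3, a kynurenine aminotransferase, by -0.89 (SE 0.39). Gpt2, Abat and Gpt (0.44) lay above all parental arrays in 6 of 6 lines. Kyat3, Got1 (-0.41) and Psat1 (-0.42) lay below them in 6 of 6. Over all genes tested, 6.94% had all lines above in this way and 5.05% all below. Gpt2, Abat and Kyat3 each had an adjusted p of 1 (limma).

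Of 14 genes of leucine uptake and sensing, 11 were higher and 3 lower (median 0.15), and none passed. The leucine carrier Slc7a5 and its partner Slc3a2 differed by -0.05 (SE 0.33) and -0.09 (SE 0.21). The sestrins, stress-induced restrainers of mTORC1, had the smallest p of the list, with Sesn3 at 1.24 (SE 0.30), Sesn1 at 0.76 (SE 0.42) and Sesn2 at 0.57 (SE 0.33). Sesn3 read 8.94, 8.78 and 8.59 in AZD1208 lines, 9.50, 8.72 and 9.24 in vehicle lines and 7.72 in the parental line. All 6 lines lay above all parental arrays for Sesn3, and also for Sesn1 and Rraga of this list, where 6.94% of genes tested did. Sesn3 had an adjusted p of 1 (limma).

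Of 6 genes reported to control Bcat1 in other cells, 5 were higher and 1 lower than in the parental line (median 0.07), and none passed. Myc read 9.43, 9.79 and 10.30 in AZD1208 lines, 9.38, 10.34 and 9.92 in vehicle lines and 9.78 in the parental line, a difference of 0.08 (SE 0.40). Atf4 differed by 0.06 (SE 0.31), the RNA-binding protein gene Msi2 by 0.32 (SE 0.29), Hif1a by 0.29 (SE 0.42) and the methyltransferase gene Dot1l by -0.29 (SE 0.44). Recurrent lines lay on both sides of the parental Myc value. Whether the Myc probe set also reads the transcript of the MYC transgene was not tested. Between AZD1208 and vehicle lines no gene of any of these lists passed either. The lowest unadjusted p belonged to Mcee at -0.36 (SE 0.17, adjusted p = 1, limma). Mcee and Mtor (-0.21, SE 0.14) had no overlap between the groups, where 3.39% of all genes tested had none.

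**Figure D4:**
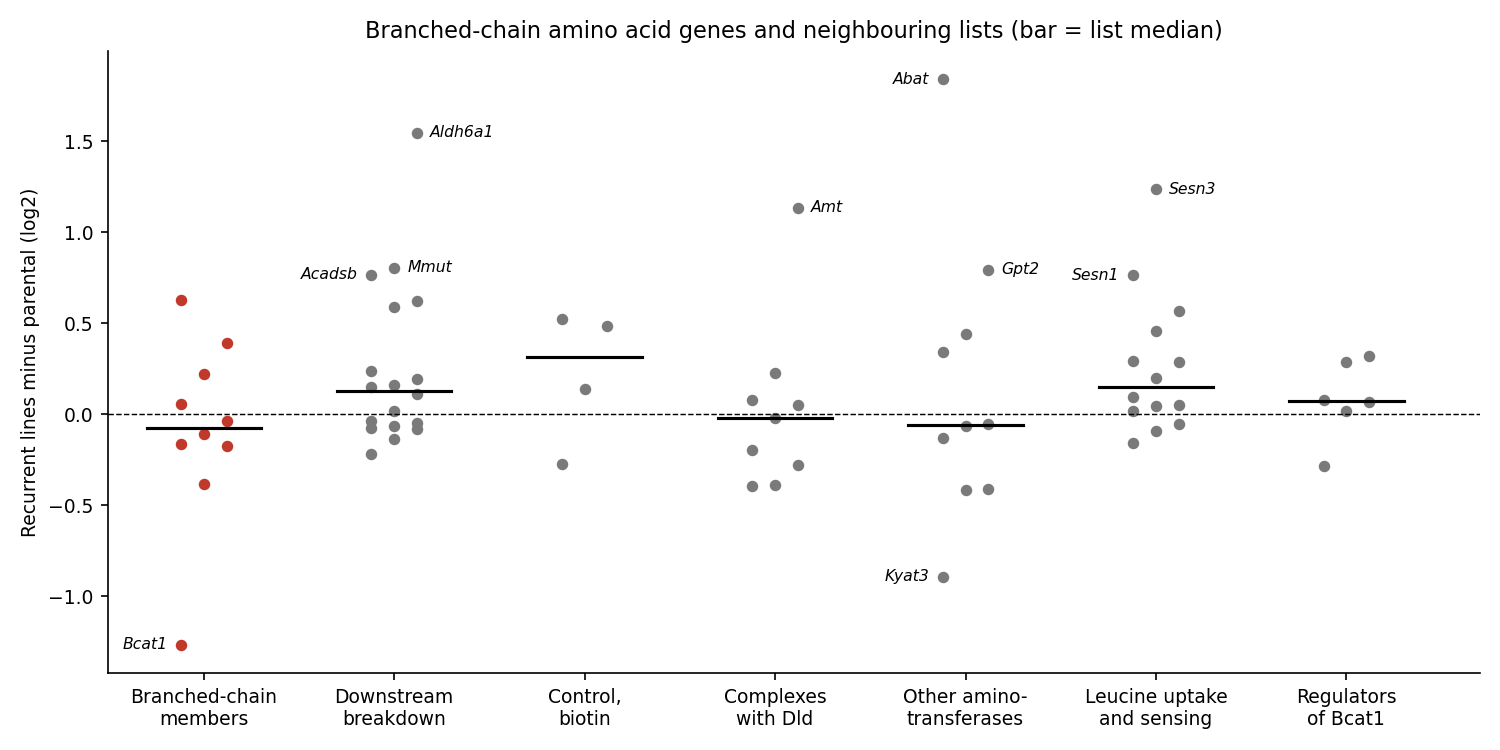
Recurrent lines minus the parental line (log2) for the 10 branched-chain genes (red) and for neighbouring lists (grey), 1 point per gene and a bar at each list's median, with the outermost genes named. Bcat1 at -1.27 is the lowest point, and the highest are Abat (1.84), Aldh6a1 (1.55) and Sesn3 (1.24).

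Markers of other cells moved in part with the same comparison. The mean level of the 10 fibroblast markers was 6.71 to 7.59 in AZD1208 lines, 6.67 to 6.90 in vehicle lines and 6.32 in the parental line. Of the 7 that were tested, 3 were higher and 4 lower in recurrent lines (median -0.08). Postn (4.16) and Pdgfra (1.68) were higher in recurrent lines, while the collagens Col1a1 (-0.08), Col1a2 (-0.18) and Col3a1 (-0.09) were near the parental values, and none passed the test (limma adjusted p = 1). The 8 myeloid markers averaged 6.05 to 6.51, 6.09 to 6.66 and 6.17, and the 6 endothelial markers 5.69 to 5.94, 5.70 to 5.85 and 5.89, in AZD1208 lines, vehicle lines and the parental line. The 5 lymphocyte markers averaged 5.77 to 6.22 in AZD1208 lines, 5.62 to 6.03 in vehicle lines and 5.94 in the parental line, and the 8 epithelial markers 7.32 to 7.52, 7.15 to 7.63 and 7.68. Among the epithelial markers the keratin gene Krt19 stood out, at 6.59, 6.63 and 6.96 in AZD1208 lines, 6.63, 6.94 and 6.87 in vehicle lines and 8.32, 8.26 and 8.29 on the parental arrays. All 6 lines lay below the parental arrays, as for Bcat1, where 5.05% of genes tested did. The mean difference of Krt19 was -1.52 (SE 0.23, unadjusted p = 0.00022, limma adjusted p = 0.682). Krt8 and Krt18 differed by 0.07 and -0.23, Cdh1 by -0.24, Cldn3 by -0.41 and Cldn4 by 0.41. Of the 6 epithelial markers tested, 2 were higher and 4 lower in recurrent lines (median -0.23). In RNA from whole cultures, fewer cells with Bcat1 and less Bcat1 RNA per cell cannot be told apart, and the part of these markers in the Bcat1 difference was not tested.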

How the data were processed

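Expression was measured on Affymetrix Mouse Gene 2.0 ST arrays, 1 for each of 9 samples. Values were deposited on the log2 scale as the intensity of each probe set. Per the submitters' processing notes the authors used oligo. No source used here states its version, or how background, scaling and probe summary were handled. The deposited scale was kept. The annotation of the platform gave the gene names: of 41345 probe sets, 23521 had 1 symbol, 1814 several (named for none) and 16010 were unlisted. Where several probe sets shared a gene (1082 genes), the brightest on average stood for it. The 30% of genes with the lowest mean (under 5.81) were left out.

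Parental arrays were averaged to 1 sample. The 7 samples were fitted with group as the only term using lmFit and eBayes of limma 3.58.1 (R 4.3.3; 4 residual degrees of freedom), with Benjamini-Hochberg adjustment over all 15526 genes. The lone parental sample is assumed to vary like the lines. The AZD1208 and vehicle comparison was also run on simulated independent values with a shift added in the AZD1208 group. That run did not cover the comparison with the parental line, unequal arrays or repeated values, and its outcome is not given here. Figures used matplotlib 3.10.9. The number of arrays limits the precision.

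Members and lists were chosen with earlier results of these data known. The rule for named genes takes the 10 members, up to 3 genes of a list in each direction by smallest unadjusted p, and the 5 genes most like and most unlike Bcat1. Genes named outside it were chosen after their values were seen. Some genes of the lists and 1 promoter motif searched are not reported here. AZD1208 and vehicle lines share replicate numbers. Deviations from group means correlated at 0.146, 0.118 and 0.532 for the lines numbered 1, 2 and 3, so the numbers may pair the lines; AZD1208 line 2 and vehicle line 1 correlated at 0.264. Blocking on the replicate number was tried as an alternative. Others were no filter, quantile normalization, median centring, probe set means, array weights, separate parental arrays and leaving out each array.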

Additional observations from a re-analysis of the deposited data

Results flagged for a closer look

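Mccc1 in AZD1208 line 3 was at 7.24, far from the other 5 recurrent lines, of which the nearest was vehicle line 3 at 7.97. It was the only one of the 10 genes for which a line stood apart by Dixon's criterion over the 6 recurrent lines, and chance alone marks about 1 in 20 such groups. The same line was also the lowest for Dld (9.17). Its array had the narrowest spread of values (interquartile range 2.87), and the part of this in the low values was not tested.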

How the results depend on the processing

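The fall of Bcat1 against the parental line, by which the gene was chosen, was between -1.34 and -1.23 in the 15 alternatives. Each was within the SD between lines of the reported -1.27. Leaving out single arrays could not change its direction, because every line lay below every parental array. No filter, probe set means and separate parental arrays left the value at -1.27. Leaving out single arrays moved the small differences from the parental line to between -0.24 and -0.086 for Bckdk, 0.15 and 0.30 for Dbt, -0.17 and -0.030 for Ivd and -0.12 and 0.032 for Mccc2. Between AZD1208 and vehicle lines 0 genes were called in all 16 alternatives. Against the parental line 1 gene was called with array quality weights and 156 with the parental arrays as separate samples, where technical arrays count as if independent. With the replicate block Bcat1 differed between AZD1208 and vehicle lines by 0.02 (limma adjusted p = 1), and the block changed no call.

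Small differences between AZD1208 and vehicle lines changed sign. With quantile normalization Bcat1 was at -0.0063, Bckdha at 0.045, Dld at 0.041 and Mccc2 at 0.011. With median centring Bcat1 was at -0.0032. With array quality weights Bcat1 was at -0.024, Bcat2 at 0.14, Bckdha at 0.14, Dld at 0.52 and Ivd at 0.030. In that setting AZD1208 line 1 had a weight of 2.87, against 0.58 for line 2 and 0.34 for line 3. Leaving out single arrays gave -0.058 to 0.075 for Bcat1, -0.41 to 0.11 for Bcat2, -0.21 to 0.14 for Bckdha, -0.34 to 0.11 for Bckdhb, -0.43 to 0.48 for Dld, -0.50 to 0.057 for Mccc1 and -0.20 to 0.11 for Mccc2. Dbt and Bckdk kept their direction in all 16. The cause of these changes was not tested, and no gene of the 10 passed in any alternative (smallest adjusted p = 0.80). Unadjusted p (limma) ran from 0.010 with array quality weights to 0.42 without AZD1208 line 1 for Dbt. For Bckdk it ran from 0.042 without AZD1208 line 3 to 0.62 without AZD1208 line 2.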

Other observations

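In the valine branch, Aldh6a1, the methylmalonate semialdehyde dehydrogenase, was chosen for description after its values were seen. It read 11.80, 10.15 and 9.05 in AZD1208 lines, 11.97, 9.76 and 10.25 in vehicle lines and 8.95 in the parental line. AZD1208 line 1 and vehicle line 1 stood highest, and AZD1208 line 3 close to the parental value. The recurrent mean was 1.55 above the parental line (SE 1.03, limma adjusted p = 1). Hibch, which acts earlier in the same branch, read 8.24, 7.32 and 5.997 in AZD1208 lines, 7.36, 6.80 and 6.80 in vehicle lines and 6.50 in the parental line, with AZD1208 line 3 again the lowest recurrent line and vehicle lines 2 and 3 at exactly the same deposited value.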
